A study of Pimephales promelas with 20 samples.

Results

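The entries described here are the abundant and steady piRNA reference sequences of fathead minnow larvae that were listed for forward reads and not for reverse reads. An entry was a member if it stood in the forward piRNA table and not in the reverse one, if its mean level over 15 libraries was 1000 or more reads per 1000000 forward piRNA counts (rpm), and if the SD of log2(rpm + 0.5) over those libraries was 2 or less. These limits kept 89 of the 2025 forward entries, from 1896 that were absent from the reverse table. The members were thus chosen by their measured level and spread over all libraries, so the high level and the steadiness of the members are given as a description and not as a finding. The limit on the SD removed no entry, since each of the 89 forward-only entries at that level also met it. When members whose profiles over the libraries were nearly identical (Pearson r over 0.98 to at least 1 other) were joined, 43 separate signals remained.

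The libraries were made from total RNA of whole Pimephales promelas larvae, a cyprinid fish used in toxicity testing. EE2 larvae were held in static water containing the synthetic estrogen ethinyl estradiol at 10 ng/L. Exposure started 48 h past hatch and lasted 48 h. Control larvae were kept for the same time with 0 ng/L. The piRNA tables hold 7 EE2 libraries (replicates 1 and 4 to 9) and 8 control libraries (replicates 1 to 4, 6, 7, 9 and 10), of 10 in each group of the series. The labels name no strain and no genetic change, and they do not say how many larvae went into a library, so the spread behind each p-value is that between libraries and may be technical.

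piRNAs are small RNAs that guide PIWI proteins, in zebrafish Ziwi and Zili, to the transcripts of transposable elements, which are then cut or silenced. They are known mainly from the germ line. They are cut from long single-stranded precursors, and where sense and antisense transcripts are sliced in turn, piRNAs appear on both strands. The reads were counted on sequences catalogued in zebrafish (Danio rerio), a relative of the fathead minnow, so an entry is a zebrafish reference sequence and its level is the number of minnow reads placed on it. The numbered names carry no gene, transposon family or tissue in the files used here, no sequence was used, and levels are not scaled by length. F and R in the tables were taken as forward and reverse strand, which no label states.

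Forward piRNA totals ran from 1.02 to 3.08 M counts in EE2 libraries and from 1.30 to 3.01 M counts in control libraries. EE2 replicate 6 had the most forward piRNA counts per 100 forward miRNA counts, 22.2 against a median of 11.8 over the EE2 libraries. Control replicate 1 followed with 18.3, against a control median of 12.7. EE2 replicate 6 held the lowest level of 41 of the 89 members and the highest of 22. EE2 replicate 7, the library with the fewest counts, held the highest level of 27. Near-identical members repeat in these numbers. Among the most abundant entries of the 43 signals, EE2 replicate 6 was lowest for 21 and highest for 7. EE2 replicate 7 was highest for 8, as was control replicate 9. Each member had between 300 and 290413 counts in a library, where 300 counts carry a counting error of 5.77%. Counting error covers only part of the error, because reads without molecular identifiers are not independent molecules.

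The 89 members held most of the forward piRNA counts in every library. Their share was 79.8% ± 4.90 in EE2 libraries (SD, n = 7) and 76.7% ± 6.27 in control libraries (SD, n = 8). It ran from 69.1% to 83.7% with a median of 81.4% in EE2 libraries, and from 68.1% to 85.8% with a median of 77.6% in controls, so the groups overlapped. Without EE2 replicate 6, which had the lowest EE2 share, the EE2 mean was 81.6%. Control replicates 3 (68.1%) and 1 (68.4%) had lower shares than that library and were kept in the control mean. Set against the miRNA reads of the same libraries, the members gave 10.3 ± 2.44 counts per 100 forward miRNA counts in EE2 libraries and 9.68 ± 1.50 in controls. The medians went the other way, at 9.41 in EE2 libraries and 9.77 in controls, and EE2 replicate 6 was highest at 15.3. The most abundant entry of each of the 43 signals, counted alone, held 38.6% ± 3.61 of forward counts in EE2 libraries and 37.9% ± 3.71 in controls. The remaining member counts stood on entries whose profiles repeated another member's.

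The most abundant member, piR-dre-4794, ran from 24217 to 127913 rpm with a median of 81117 in EE2 libraries, and from 25514 to 153779 with a median of 91583 in controls. Its profile over the libraries was that of piR-dre-5462 and piR-dre-675, and the lowest r between any pair of these 3 entries was 0.99 over 15 libraries. The lowest library of piR-dre-4794 was EE2 replicate 7 in the exposed group and control replicate 1 in the other, a 6.35-fold range over all libraries. The second most abundant, piR-dre-679748, had no near-identical partner among the members. It ran from 33168 to 126834 rpm with a median of 53548 in EE2 libraries and from 31185 to 100475 with a median of 50046 in controls, with EE2 replicate 1 and control replicate 4 the highest. Neither entry separated the groups.

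The 10 lowest SDs belonged to the members at ranks 4 to 13 by level. piR-dre-428 ran from 28703 to 48168 rpm with a median of 36815 in EE2 libraries, and from 25213 to 42324 with a median of 33368 in controls. piR-dre-423, the steadiest member (SD 0.22 on the log2 scale), ran from 28279 to 45217 with a median of 34786 in EE2 libraries and from 25214 to 41508 with a median of 34859 in controls. piR-dre-424 (SD 0.23) and piR-dre-427 (SD 0.25) followed it. The level of piR-dre-27153 was 22925 to 45425 rpm with a median of 33623 in EE2 libraries, against 22324 to 37283 with a median of 29605 in controls. All of these had their lowest EE2 value in replicate 6 and their highest in replicate 7, and control replicate 3 was the lowest control of each. With piR-dre-29977 and piR-dre-429, they fill the ranks from 4 to 10, and the 10 most abundant members together held 42.7% of forward counts on average. The 12 entries in the groups of piR-dre-428, piR-dre-27153, piR-dre-423 and piR-dre-25956 held 27.4% to 48.3% of forward counts with a median of 36.8% in EE2 libraries, and 25.0% to 41.5% with a median of 33.5% in controls.

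**Figure D1:**
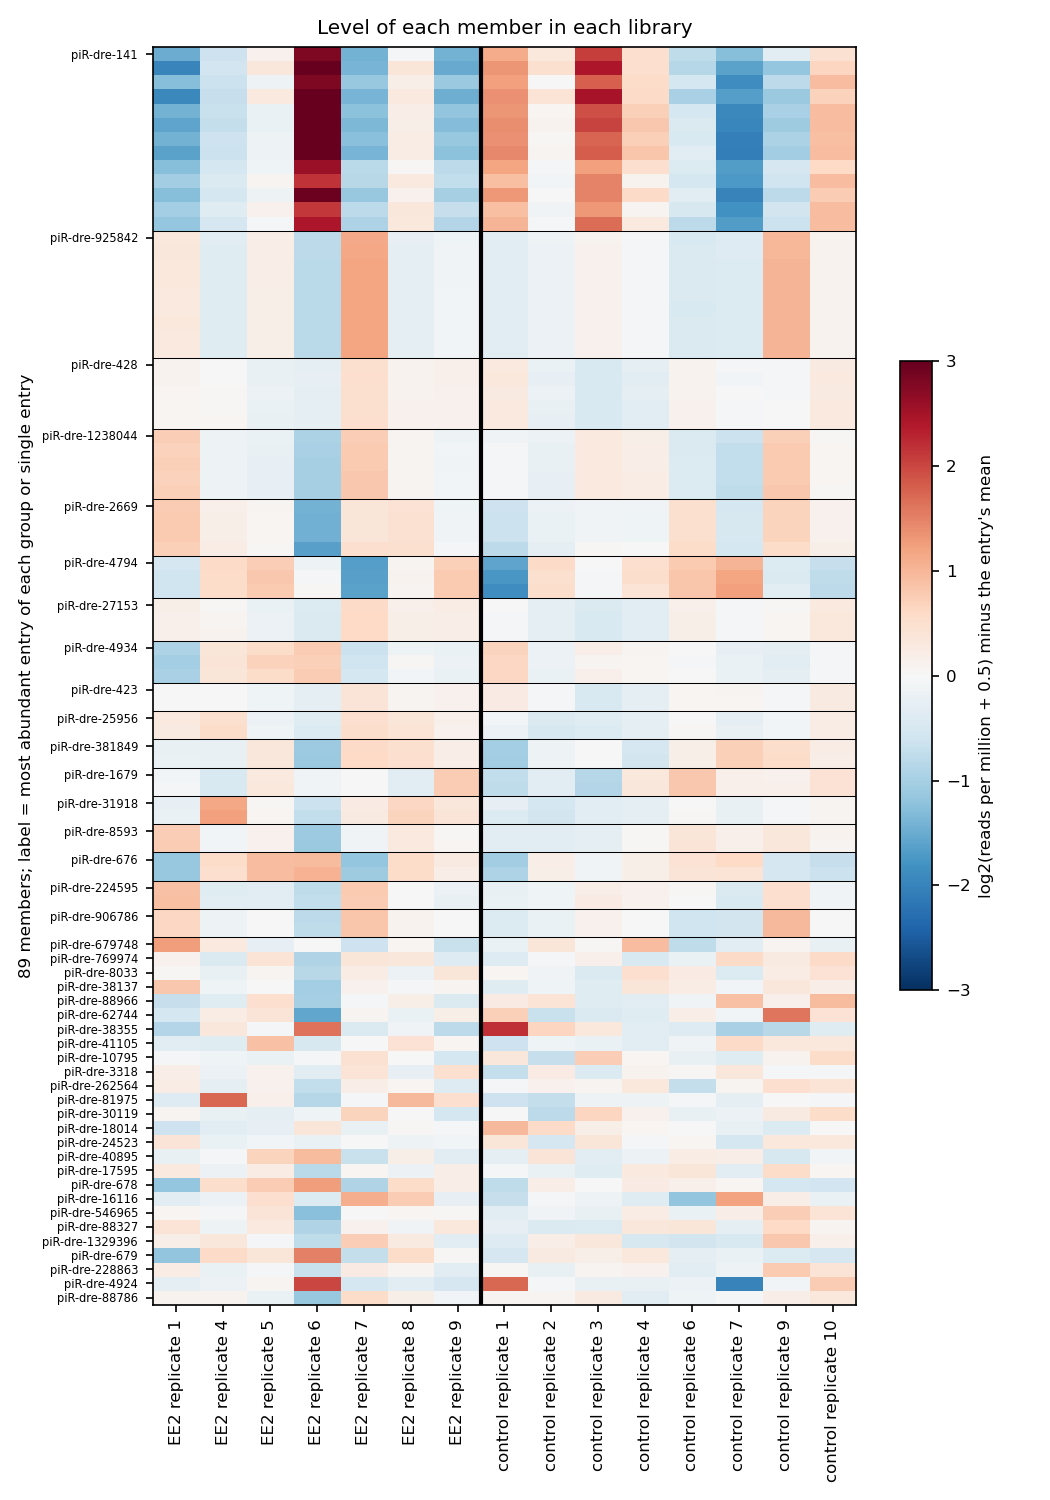
Each row is 1 of the 89 members and each column 1 library, with 7 EE2 libraries left of the black line and 8 control libraries right of it. Colour gives log2(rpm + 0.5) minus the mean of that entry over the libraries, and horizontal lines divide groups of near-identical entries, whose rows repeat 1 pattern. The top block, the 13 entries around piR-dre-141, is highest in EE2 replicate 6.

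The 43 signals were 17 groups of 2 or more entries, holding 63 members, and 26 single entries. The group of piR-dre-925842 had 9 entries with mean levels of 2299 to 2544 rpm, and the ratio of any 2 of them varied by no more than 1.06-fold over the 15 libraries. Counts of piR-dre-2670 were 1.002 to 1.006 times those of piR-dre-35719 in every library. Among the 3916 pairs of members, 45 kept their count ratio within a 1.05-fold range over all libraries. The group of piR-dre-428 had 5 entries (ratios within 1.08-fold) and that of piR-dre-1238044 had 5 (within 1.15-fold). The group of piR-dre-2669 had 4, within 1.28-fold. Entries that share nearly all of their pattern are not independent measurements. Whether they were counted from the same reads was not tested.

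Some near-identical entries had neighbouring identifier numbers, although no source used here says what the order of the numbers means. Of the 89 members, 29 (32.6%) had an entry with the next higher or lower number in the forward table, against 16.3% of all forward entries. The share was 27.7% among forward-only entries of 100 to 1000 rpm and 50.0% (3 of 6) among entries of 1000 rpm or more in both tables, so it was not particular to the members. Not every neighbouring number went with a like profile, since r was 0.021 between piR-dre-18014 and piR-dre-18015 and 0.28 between piR-dre-25956 and piR-dre-25957. piR-dre-18015 and piR-dre-25957 lie below the members' limit on level, and counting error can lower the r of a rare entry. Its part in these 2 values was not tested. The longest run with a member was from piR-dre-141 to piR-dre-156, 16 entries of which 10 were members, and all 10 fell into the same group. Below the limit on level, piR-dre-147, piR-dre-150, piR-dre-151, piR-dre-154 and piR-dre-155 of this run also had an r over 0.98 with a member. piR-dre-156, at a mean of 4.48 rpm, did not share the pattern, with an r of 0.22 to 0.47 to the 10 members. The 5 members from piR-dre-675 to piR-dre-679 behaved differently, since their profiles drifted apart with distance in number. The r with piR-dre-675 was 0.85 for piR-dre-676, 0.80 for piR-dre-677, 0.68 for piR-dre-678 and 0.47 for piR-dre-679, over 15 libraries that share depth and composition. piR-dre-675 itself followed piR-dre-4794 (r = 0.99).

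The limits of the rule cut through a continuous range of levels. The members just inside the limit on level were piR-dre-88786, at a mean of 1013 rpm, and piR-dre-143, at 1009. The forward-only entries just outside were piR-dre-134768, at 982, and piR-dre-14023, at 977. On the other limit the largest SDs inside were 1.52 for piR-dre-153 and 1.48 for piR-dre-146, and no forward-only entry of this level lay outside. The most abundant forward-only entries with an SD over 2 were piR-dre-644638, at 221 rpm, and piR-dre-712769, at 105. In all, 16 entries that were not members had an r over 0.98 with one, and 15 of these were forward-only.

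Absence from the reverse table is not a reading of 0. That table lists no entry with fewer than 73 reads over the 15 libraries, so reverse reads of a member below such a number would not show, while the least read member had 30393 forward reads. Of the 129 entries in both tables, 6 reached the members' level. piR-dre-10286, at a mean of 9772 rpm, had 348 reverse reads to 293014 forward reads (0.119% of the sum). Its profile was nearly that of the forward-only piR-dre-1238044 (r = 0.998). The other 5, from piR-dre-19050 at 1103 to piR-dre-1 at 1256 rpm, had 0.648% to 1.12% reverse reads. If 73 reads was the least that the reverse table lists, the reverse share of the least read member lay below 0.240%, under that of these 5 entries, and the limit is lower for the other members. piR-dre-10286, at 0.119%, is not set apart from the least read member by this limit. It is set apart from members read as deeply. On the same condition piR-dre-1238044, with 294019 forward reads, had fewer than 73 reverse reads, against 348 for piR-dre-10286.

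A member had the same counts as an entry of the miRNA tables, and 3 more kept a nearly constant ratio to one. The miRNA tables were counted on fathead minnow miRNA sequences in the same libraries. This search was made after the values had been seen, over 499 forward and 53 reverse miRNA entries with a read in every library, and asked for a count ratio within a 1.05-fold range over the 15 libraries. It held for 4 of the 89 members and for 5 of the 1840 forward piRNA entries with a read in every library. Low counts widen a ratio by counting error, so these shares do not compare between abundant and rare entries.

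piR-dre-88966 and novelMiR_1190 had identical counts in 15 of 15 libraries, at 5639 to 18289 with a median of 8696 in EE2 libraries and 6828 to 20208 with a median of 12522 in controls. piR-dre-290746 had 1.00 to 1.001 times the counts of novelMiR_24200, with a largest gap of 10 reads. Its near-identical partner piR-dre-381849 had 1.06 to 1.10 times the counts of the same miRNA. piR-dre-769974, a single signal with a mean of 18385 rpm, had 0.959 to 0.965 times the counts of novelMiR_21576 on the reverse strand of the miRNA reference. Its counts ran from 21822 to 63216 with a median of 32720 in EE2 libraries and from 19813 to 48912 with a median of 37932 in controls. For these 4 members the counts in the piRNA tables therefore repeat, exactly or at a nearly constant ratio, counts that the miRNA tables already hold. Levels scaled to the total of each table can still differ, and the groups were not compared for these miRNA entries. They held 3.05% ± 0.946 of forward piRNA counts in EE2 libraries and 3.37% ± 0.958 in controls.

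**Figure D2:**
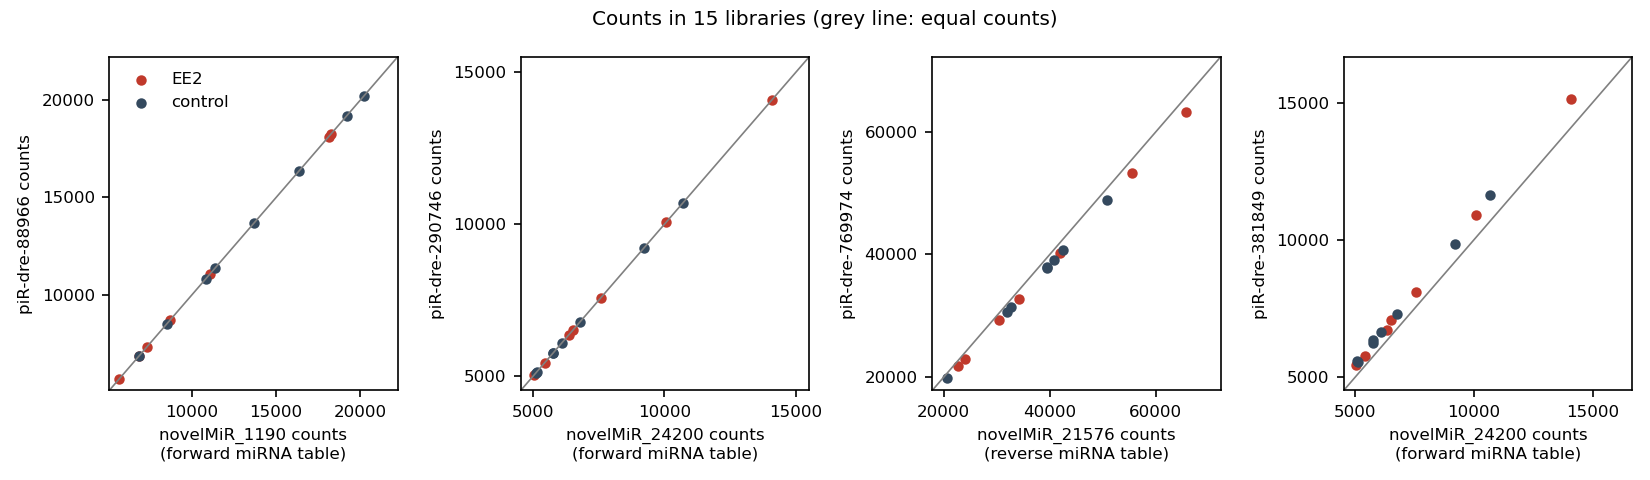
Each panel sets the counts of 1 piRNA member (vertical axis) against those of 1 miRNA entry (horizontal axis) in 15 libraries, EE2 in red and control in dark blue, on linear axes. The points of piR-dre-88966 lie on the grey line of equal counts in all 15 libraries, and those of the other 3 members lie along a line of nearly constant ratio.

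No member passed the test for a change with EE2. All 89 passed the filter on low counts, and 0 had an adjusted p under 0.05 in edgeR's quasi-likelihood test with Benjamini-Hochberg adjustment over the 1701 entries tested (0% of them called). Unadjusted p-values under 0.05 were found for 5 members (5.62%), against 5.47% of all entries tested. All 5 were higher after EE2, where 1.47% of all entries tested were higher and 4% lower at that p. DESeq2, whose adjusted p also called 0 members, gave 8 at that p, 6 higher and 2 lower. Over all entries DESeq2 gave 171, 53 higher and 118 lower, so its 8 are not to be set beside the edgeR share. The 5 entries of the edgeR fit made up 3 signals. Scaling by column totals alone left 5 members, while for all entries it gave 6 higher and 162 lower in place of 25 and 68. The groups did not overlap in normalised level for 0 members, against 0.0588% of entries tested.

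The log2 fold changes were above 0 for most members and ran from -0.35 to 0.94 over the 89. After TMM scaling, 85 of 89 members and 39 of the 43 signals had a log2 fold change above 0, against 54.3% of the 1701 entries. The 85 include members, such as piR-dre-143 and piR-dre-679, whose mean reached the limit on level only through EE2 replicate 6. For these the direction is not independent of how they were chosen. The median log2 fold change was 0.32 over the members and 0.047 over all entries. Of forward-only entries between 100 and 1000 rpm, 64.4% lay above 0, with a median of 0.13, and of those tested under 100 rpm 48.5% did, with a median of -0.022. Of the 116 tested entries in both tables, 31.9% did, with a median of -0.12. With scaling by column totals alone the medians were 0.087 over the members and -0.19 over all entries, and 69 members and 26 signals lay above 0. That scaling shifted the median of all entries by -0.24. Relative to the median of all entries, the members' median stood at 0.27 with TMM scaling and at 0.28 with column totals. A scaling shifts all entries nearly alike, so this likeness was fixed in advance. The difference was 0.19 with the replicate block, 0.18 without EE2 replicate 7 and 0.34 without EE2 replicate 6. Near-identical members share their direction, and no test of these counts over the list was made.

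The interval of the fold change showed what size of difference the libraries leave room for. For 66 of the 89 members (74.2%) the 95% interval lay within a 2-fold difference either way, against 48.0% of all entries tested. The share was 57.7% for forward-only entries of 100 to 1000 rpm, 39.5% for those under 100 rpm and 62.1% for entries in both tables. An interval inside a 1.5-fold difference was found for 9 members, a smaller share than 67 of 477 forward-only entries of 100 to 1000 rpm. Level and spread, by which members were chosen, bear on the width of an interval, so these shares are a description only. Near-identical members are counted separately in them. The most abundant member, piR-dre-4794, had a log2 fold change of 0.018 ± 0.43 (SE), with an interval from a ratio of 0.543 to 1.89 (edgeR quasi-likelihood, adjusted p = 0.992). For piR-dre-679748 it was 0.29 ± 0.29 (adjusted p = 0.769), and without EE2 replicate 1 it was -0.015. The steadier piR-dre-428 had 0.30 ± 0.19, an interval from 0.938 to 1.63 (adjusted p = 0.763), and 6 of 7 EE2 libraries lay above the control median of its normalised level. In rpm, EE2 replicates 5 (29618) and 6 (28703) lay below the control median of 33368.

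**Figure D3:**
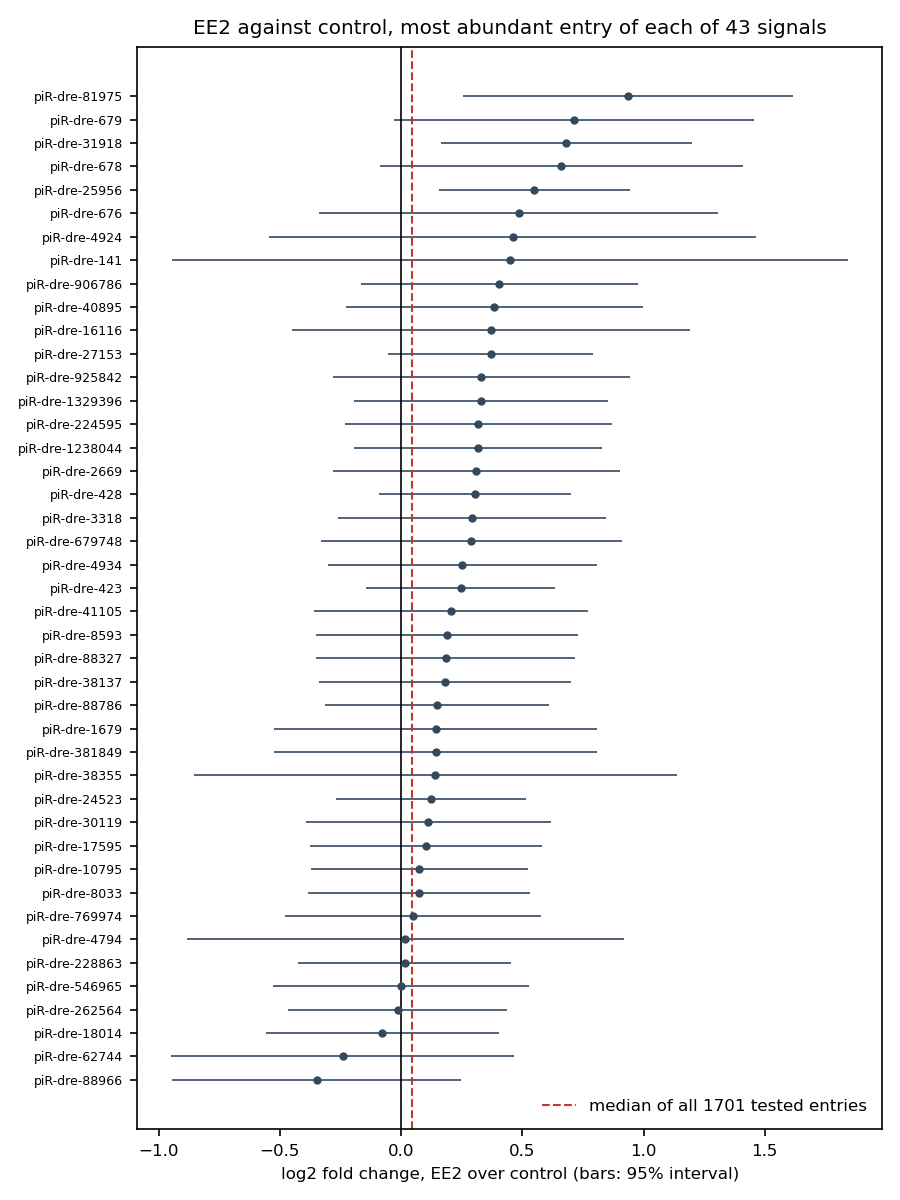
Points give the log2 fold change of EE2 over control for the most abundant entry of each of the 43 signals, and bars its 95% interval. Of the 43 points 39 lie right of 0, the dashed line marks the median of all 1701 tested entries (0.047), and the widest interval is that of piR-dre-141.

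The 5 members with the smallest p among those higher after EE2 belonged to 3 signals, and none passed the adjusted test. By fold change alone, piR-dre-679 (0.71) and piR-dre-678 (0.66) stood above piR-dre-25956, with wider intervals, as did several entries around piR-dre-141. piR-dre-25956 ran from 11387 to 20573 rpm with a median of 17939 in EE2 libraries and from 10846 to 16971 with a median of 12990 in controls. Its EE2 libraries lay above the control median of normalised level in 7 of 7 cases, and the ranges overlapped. In rpm, EE2 replicates 5 (12965) and 6 (11387) lay below the control median. With scaling by column totals alone the log2 fold change was 0.35. With TMM scaling it was 0.55 ± 0.19 (edgeR quasi-likelihood, p = 0.00918, adjusted p = 0.586, 0.119 to 0.9998 over the alternatives). Its partner piR-dre-30813, whose counts varied against it by no more than 1.13-fold, had 0.57 ± 0.20 (p = 0.0100) and is not a second measurement.

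piR-dre-81975 was a single signal. It ran from 961 to 5752 rpm with a median of 1918 in EE2 libraries, and from 1057 to 1707 with a median of 1553 in controls. EE2 replicate 6 was below every control and EE2 replicate 4 was the highest, so the spread was wider after EE2 than in controls. Its log2 fold change was 0.94 ± 0.32 (edgeR quasi-likelihood, p = 0.00988, adjusted p = 0.586), with 5 of 7 EE2 libraries above the control median of normalised level.

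piR-dre-31918 ran from 1986 to 7023 rpm with a median of 3703 in EE2 libraries and from 2169 to 3302 with a median of 2655 in controls, again with EE2 replicate 6 lowest and EE2 replicate 4 highest. It shares these extreme libraries with piR-dre-81975, so the result is not shown to be independent of that entry's. The log2 fold change of piR-dre-31918 was 0.68 ± 0.25 (edgeR quasi-likelihood, p = 0.0130, adjusted p = 0.586). Its partner piR-dre-33013 had 0.72 ± 0.26 (p = 0.0125). In both, 6 of 7 EE2 libraries lay above the control median of normalised level. In rpm, EE2 replicates 1 (2649) and 6 (1986) lay below the control median of piR-dre-31918 (2655). With the replicate number as a block, 0 members had an unadjusted p under 0.05. Only replicate numbers 1, 4, 6, 7 and 9 occur in both groups, so the comparison in that fit rests on fewer libraries. The median log2 fold change over the members was 0.24 in that fit and 0.32 without the block.

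In the other direction 4 members had a fold change below 0. piR-dre-88966, the entry with the counts of novelMiR_1190, ran from 2821 to 8055 rpm with a median of 4429 in EE2 libraries, and from 4374 to 10897 with a median of 6526 in controls. Its log2 fold change was -0.35 ± 0.28 (edgeR quasi-likelihood, p = 0.235, adjusted p = 0.763). piR-dre-62744 had -0.24 ± 0.33 (p = 0.481) and was highest in control replicate 9, at 16163 rpm against a control median of 5551. Without that control its fold change was 0.045. piR-dre-18014 had -0.077 ± 0.23 (p = 0.739) and piR-dre-262564 had -0.014 ± 0.21 (p = 0.949).

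**Figure D4:**
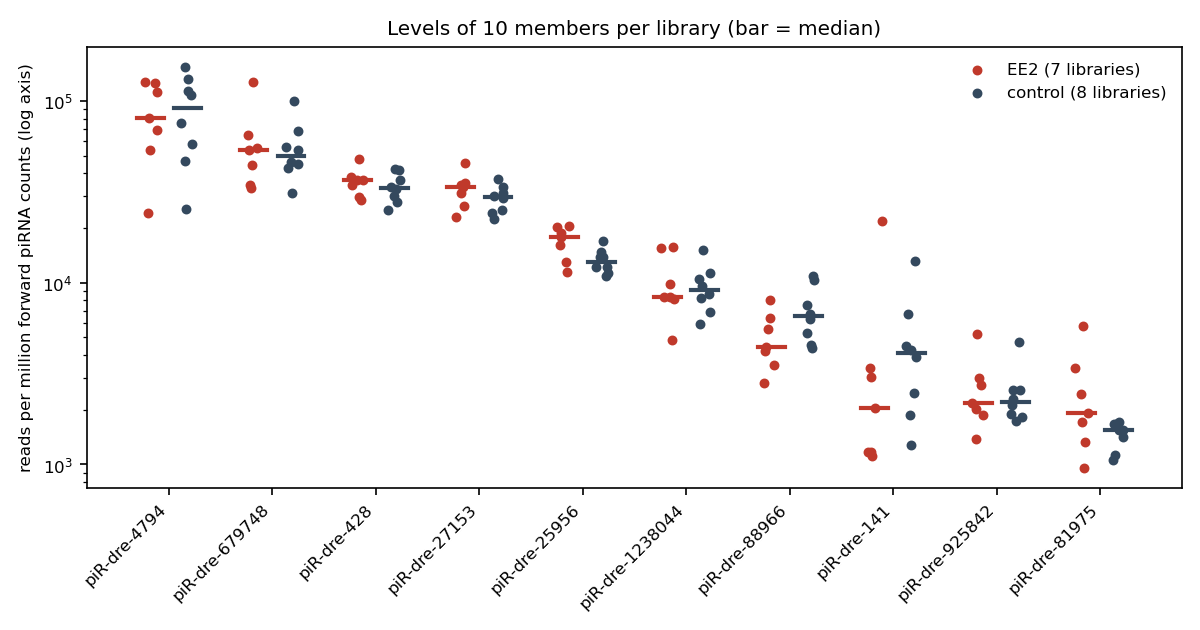
Levels of 10 members are shown in each library on a log axis of rpm, relative to forward piRNA counts, EE2 in red at the left and control in dark blue at the right of each pair, with bars at the medians. The groups overlap for each of the 10, and 1 EE2 library stands above the rest for piR-dre-141.

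The group of piR-dre-141 varied most among the members, and its direction with EE2 depended on a single library and on the fit. It had 13 entries with mean levels of 1009 to 4809 rpm, among them piR-dre-146, piR-dre-148, piR-dre-149, piR-dre-152, piR-dre-153 and piR-dre-31496. They were joined in a chain, with a lowest r of 0.93 between 2 of them and count ratios that varied by up to 4.28-fold. These 13 are also the only members with an SD over 1. piR-dre-141 ran from 1114 to 21945 rpm with a median of 2049 in EE2 libraries, and from 1285 to 13212 with a median of 4093 in controls. EE2 replicate 6 was the highest library and control replicate 3 the highest control, while 6 of 7 EE2 libraries lay below the control median of normalised level. The sum of the 13 entries was 0.522% to 9.97% of forward counts with a median of 0.935% in EE2 libraries, and 0.437% to 5.27% with a median of 1.79% in controls.

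With all libraries the log2 fold changes of these 13 entries ran from 0.41 to 0.70 with unadjusted p from 0.301 to 0.524. Without EE2 replicate 6 they ran from -1.16 to -0.39, and 8 of the 13 had an unadjusted p under 0.05 while 0 passed the adjusted test. The 13 entries are 1 signal, so these 8 are not separate results. Over all entries that fit gave 53 higher and 177 lower at that p, against 25 and 68 with all libraries. piR-dre-141 had 0.45 ± 0.66 with all libraries (edgeR quasi-likelihood, adjusted p = 0.830) and -1.05 without EE2 replicate 6 (adjusted p = 0.297, 0.258 to 0.9998 over the alternatives). DESeq2 gave it -0.93, while the median over the 13 entries was 0.50 in that fit. DESeq2 at its default settings can replace outlying counts, so -0.93 may not rest on all libraries. Whether counts of EE2 replicate 6 were replaced was not tested. With all libraries kept, the median over the 13 entries was -0.15 with limma voom. It was 0.056 with the replicate block, with a range from -0.34 to 0.38. Outside this group, 72 of 76 members had a fold change above 0 with all libraries and 70 without EE2 replicate 6.

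By r of scaled levels, the members most like a forward miRNA entry were 3 of the same group. Over the 15 libraries the r of log2 levels with novelMiR_5351, each relative to the total of its own table, was 0.98 for piR-dre-149, piR-dre-148 and piR-dre-31496, and 0.93 to 0.98 over the 13 entries. novelMiR_5351 ran from 2.26 to 230 reads per 1000000 forward miRNA counts with a median of 5.42 in EE2 libraries, and from 1.79 to 42.1 with a median of 16.6 in controls. EE2 replicate 6 was its highest library too, with 3197 counts. Its lowest counts were 23 in EE2 libraries and 34 in controls, where counting error is larger. The entry was picked as the most alike among many miRNA entries, and the libraries share depth and preparation, so the r is a description. The totals used for scaling also enter the r. piR-dre-88966, with the same counts as novelMiR_1190, had its highest r, 0.83, with novelMiR_33307.

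**Figure D5:**
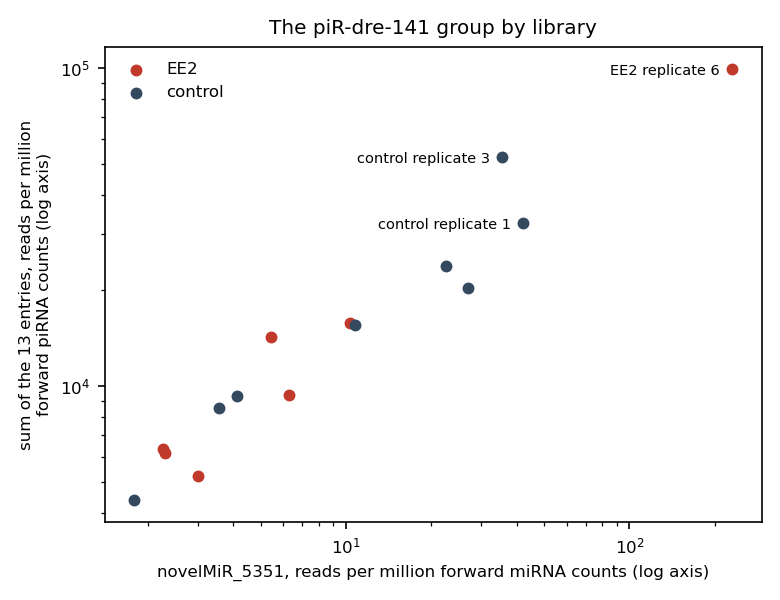
The summed level of the 13 entries around piR-dre-141 is set against novelMiR_5351 in 15 libraries on log axes, EE2 in red and control in dark blue. The points follow 1 band from control replicate 7 at the lower left to EE2 replicate 6, at 99707 and 230 rpm, at the upper right.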

How the data were processed

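The authors deposited raw counts of reads on each reference sequence. The values are whole numbers, not normalized, and column totals vary. Tools named in the submitters' processing notes are edgeR 3.26.8, limma 3.40.6, Bowtie 1.2.3 and bcl2fastq 2.19.1. Per the labels' design text, reads were mapped to fathead minnow miRNA or zebrafish piRNA sequences. The mismatches allowed, and whether a read that matches several sequences was counted on each, no source used here states, so shares are of counts and not of reads. Per the labels, libraries came from a TruSeq kit for small RNA.

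Levels (rpm) are counts per 1000000 of the forward piRNA column total. All 2025 entries of 15 libraries entered edgeR 4.0.16 (R 4.3.3): filterByExpr with a minimum count of 10, TMM, robust quasi-likelihood F test, Benjamini-Hochberg adjustment over 1701 entries, threshold 0.05. Normalised levels are TMM-scaled, and standard errors come from the F statistic. DESeq2 1.42.0, limma 3.58.1 (voom), other scalings, no filter, a replicate block and leaving out each library were alternatives. The fit was tested on simulated data. Single linkage at r over 0.98 made the groups. Members and lists were chosen with earlier results of these data known. Named members are the 10 most abundant, the steadiest and least steady, the 5 smallest p in each direction (4 exist below 0), those at the limits, the top entries of the 5 largest groups and those most like a miRNA. Library pairs of a group differed by at least 40.9 times the sampling noise (chi-square per degree of freedom), so none was counted as a duplicate.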

Additional observations from a re-analysis of the deposited data

Results flagged for a closer look

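Libraries set apart from the others of their group by more than Dixon's 95% value were found in 10 of 64 groups compared (31 named members and the members' share, in EE2 and in control libraries). Chance flags about 1 in 20, or 3.2 of 64. The named members include 8 of the piR-dre-141 group, which share a profile, so the 10 are not separate events.

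EE2 replicate 6 accounts for 8 of them. The members' share of forward counts was 69.1% in that library and 79.8% in the nearest EE2 library. On the scale of log2(rpm + 0.5), EE2 replicate 6 was at 14.42 for piR-dre-141 (next EE2 library 11.73), at 12.94 for piR-dre-148 (10.14), at 12.89 for piR-dre-152 (9.93), at 12.83 for piR-dre-149 (10.05), at 12.77 for piR-dre-31496 (9.82) and at 11.94 for piR-dre-143 (9.83). For piR-dre-2669 it was low, at 9.43 against 10.73. The part of the larger piRNA yield of this library in these values was not tested.

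Among controls, piR-dre-925842 was at 12.20 in replicate 9 (next control 11.33) and piR-dre-262564 was at 10.29 in replicate 6 (next control 10.94).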

How the results depend on the processing

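No member was called under any of the alternatives run (7 other fits and 15 fits without 1 library), with adjusted p for the named members from 0.119 to 0.9999. All entries gave 2 calls without the filter and 3 with DESeq2, and leaving out single libraries gave 0 to 1 (1 when EE2 replicate 1 was dropped). Members with an unadjusted p under 0.05 numbered 8 with DESeq2, 0 with the replicate block, and 5 to 13 when single libraries were dropped (13 without EE2 replicate 6, 9 without control replicate 7). For all entries this count of 93 was 168 with column totals alone, 171 with DESeq2, 14 with the replicate block and 71 to 230 when single libraries were dropped (230 without EE2 replicate 6, 148 without control replicate 7). Deviations of same-numbered libraries from their group means had r from -0.29 to 0.20 over 5 pairs. So few pairs cannot settle whether the numbers pair the libraries. The number of members above 0, an alternative added after seeing the data, ran from 69 to 86. Limits of 500 and 2000 rpm gave 193 and 50 members. The 89 members made 39 signals at r over 0.95, 46 at r over 0.99, 45 with complete linkage, and 41 to 46 with 1 library left out. With miRNA counts as the denominator the members' share became 10.3 per 100 in EE2 libraries (median 9.41) and 9.68 in controls (median 9.77), by construction.

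Of 682 log2 fold changes of named members under alternatives, 53 changed sign, 21 of them in other fits, and none was called; the cause was not tested. With column totals alone, piR-dre-4794 was -0.071, piR-dre-5462 -0.058 and piR-dre-88786 -0.063 (-0.13 with miRNA totals). DESeq2 gave -0.93 for piR-dre-141 and -1.02 for piR-dre-153. piR-dre-262564 was 0.013 with RLE factors, 0.013 with DESeq2 and 0.0051 with limma voom. With limma voom, piR-dre-141 was -0.33, piR-dre-146 -0.26, piR-dre-153 -0.27, piR-dre-148 -0.21, piR-dre-152 -0.28, piR-dre-149 -0.15 and piR-dre-31496 -0.23. With the replicate block, piR-dre-141 was -0.34, piR-dre-146 -0.13, piR-dre-153 -0.16, piR-dre-152 -0.078 and piR-dre-31496 -0.042. With 1 library left out, the range was -1.05 to 0.77 for piR-dre-141, -1.07 to 0.91 for piR-dre-146, -1.13 to 0.99 for piR-dre-153, -1.04 to 0.83 for piR-dre-148, -1.16 to 0.87 for piR-dre-152, -0.96 to 0.84 for piR-dre-149, -1.07 to 0.88 for piR-dre-31496 and -0.65 to 0.69 for piR-dre-143, lowest without EE2 replicate 6 in each. It was -0.16 to 0.31 for piR-dre-4794, -0.17 to 0.36 for piR-dre-5462, -0.015 to 0.49 for piR-dre-679748, -0.35 to 0.045 for piR-dre-62744 and -0.090 to 0.064 for piR-dre-262564.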
